A study of Mus musculus with 10 samples.

Results

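The phagocyte NADPH oxidase is the enzyme by which neutrophils, monocytes and macrophages make superoxide. The genes of 5 of its subunits, Cyba, Cybb, Ncf1, Ncf4 and Rac2, were taken by name from the table deposited for a study of mouse bone marrow progenitors. All 5 were listed among its 12791 gene names. The enzyme is assembled on demand. Cybb encodes gp91phox, the catalytic chain that passes electrons across the membrane, and Cyba encodes p22phox, which holds gp91phox stable and offers the docking site for the cytosolic part. That part includes the organiser p47phox (Ncf1) and p40phox (Ncf4), which binds a phosphoinositide of the phagosome membrane. A Rac GTPase, Rac2 in most blood cells, joins them to switch the enzyme on. In humans, inherited loss of a subunit causes chronic granulomatous disease.

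The cells were hematopoietic progenitors of C57BL/6 bone marrow, sorted as negative for lineage markers, positive for c-Kit and negative for Sca-1, and their RNA was sequenced in bulk. The labels give 10 libraries in 3 groups, namely 3 KDR-positive and 4 KDR-negative libraries from mice that had carried the GL261 glioma line to week 4, and 3 naive libraries from mice with no tumor. KDR, a receptor for vascular endothelial growth factor, was read through GFP knocked into its gene in the tumor-bearing mice, with about 20000 GFP-positive cells behind a sample. The labels do not tell whether replicate libraries are from different mice, so the spread behind the p-values may be technical.

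The file holds 2 comparisons between groups, giving per gene the log2 fold change, the mean level in log2 CPM (a read count scaled by library, as the header names the unit), the p-value and its adjusted form, and no value per library. Depth is therefore unknown and no standard deviation can be given. The header names neither comparison. They are called first and second in the order of the columns, and the numerator group is the one where positive fold changes mean higher levels. Which of the KDR-positive, KDR-negative and naive groups stands on which side cannot be read from the sources used here. The denominator sides of both comparisons matched closely (median absolute deviation 0.0087 log2 over 9044 genes), so they are treated as 1 shared group, and the members' values in the comparisons are not independent. Levels of single groups were computed from the deposited means and fold changes. They summed to 2127130 CPM over all genes in the first numerator group and 756537 CPM in the denominator group. Giving both groups the same sum, called equal totals here, lowers every log2 fold change of the first comparison by 1.49. Counts at equal totals keep the genes called on the deposited scale and take only their direction from the shifted fold change. No p-value was recomputed, so a gene counted as lower there was not tested as lower. No share of all genes is given on that scale. In bulk RNA, fewer cells of a type and less RNA per cell cannot be told apart.

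Kit, the positive marker of the sort, stood at 38.8 CPM in the first numerator group, 60.3 CPM in the second numerator group and 58.6 CPM in the denominator group. Ly6a, which encodes Sca-1, stood at 37.2, 27.2 and 27.6 CPM in the same order of groups, and Kdr at 2.24, 0.378 and 0.938 CPM. None of these 3 genes passed the authors' adjusted p of 0.05 in either comparison. In the first comparison the authors' adjusted p was 0.128 for Kit, 0.402 for Ly6a and 0.617 for Kdr. Kdr lay under 1 CPM in the second numerator and denominator groups, so its differences are uncertain and do not name the groups. Genes of other cell types moved with the first comparison. In it 18.8% of all genes were higher and 3.49% lower at the authors' adjusted p under 0.05. All 15 listed markers of resident macrophages were higher in the authors' deposited table, with a median of 5.0 on the log2 scale, as were 10 of 10 megakaryocyte genes and 7 of 11 late neutrophil genes (6 of the 7 at equal totals), while 8 of 10 B cell genes were lower. Erythroid genes were called higher for 6 of 10 and lower for 1 (5 and 2 at equal totals), and they summed to 29833 CPM in the first numerator group, 2019 CPM in the second numerator group and 1925 CPM in the denominator group. Of 5 T and NK cell genes 1 was higher and 4 lower (0 and 5 at equal totals), and of 10 genes of eosinophils, mast cells and basophils 4 were higher and 3 lower (3 and 4 at equal totals). Genes of monocytes and their progenitors split into 7 higher and 3 lower of 12, against 5 and 5 at equal totals. The macrophage markers summed to 4923 CPM in the first numerator group, 88.3 CPM in the second numerator group and 199 CPM in the denominator group. Among them Vsig4 lay under 1 CPM in the denominator group, and Mertk, Timd4 and Vsig4 lay under 1 CPM in the second numerator group. Macrophages and neutrophils also use this oxidase, and the part of these cells in the values below was not tested.

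In the first comparison the oxidase genes did not move as a block. Cyba, Cybb and Rac2 passed the threshold (authors' adjusted p under 0.05) as higher in the numerator group, and Ncf1 and Ncf4 did not pass. These 3 of 5 stand beside 22.3% of all genes called in either direction, 18.8% called higher and 3.49% called lower. The median log2 fold change of the 5 was 0.80, against -0.13 over all genes. The scale bears on these directions. At equal totals Cyba stays above 0, at 0.79, while Cybb lies at -0.10 and Rac2 at -0.69. By direction alone, the split of the called members becomes 1 higher and 2 lower. The Cybb value is smaller in size than its implied standard error of 0.34, so its direction on that scale is uncertain. The members that were not called lie lower still on that scale, Ncf4 at -1.43 and Ncf1 at -1.78. Equal totals lower the median of all genes by the same amount as the members. Relative to the median of all genes, Cyba lay at 2.41, Cybb at 1.52, Rac2 at 0.93, Ncf4 at 0.20 and Ncf1 at -0.16.

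**Figure D1:**
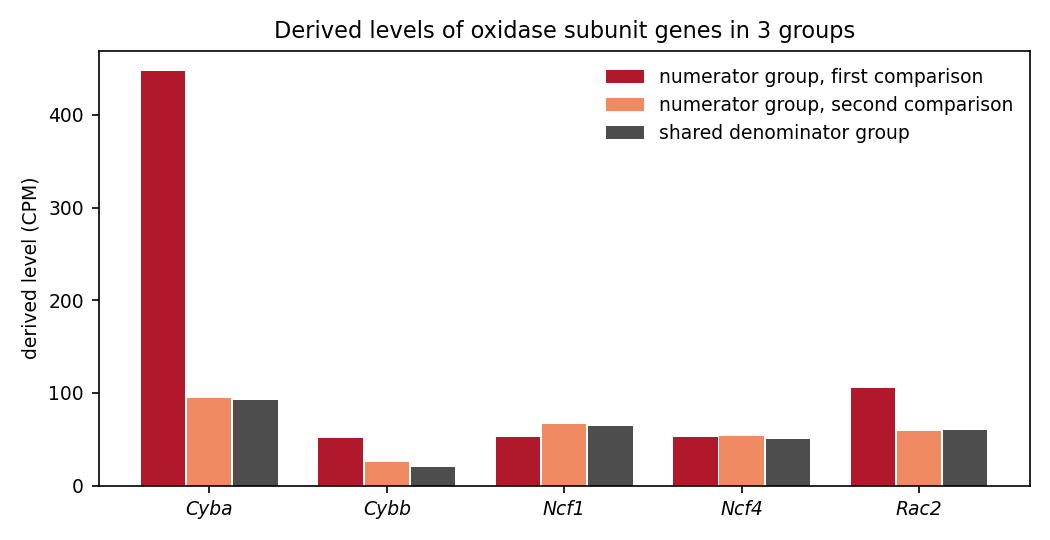
Derived levels in CPM (bars, vertical axis) of the 5 subunit genes in the first numerator group, the second numerator group and the shared denominator group; there are no values per library, hence no error bars. Cyba stands at 447 CPM in the first numerator group against 92.2 CPM in the denominator group, while Ncf1 and Ncf4 lie between 49.9 and 66.4 CPM in every group, and bars of different genes are not scaled to transcript length.

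Cyba, the membrane partner chain, showed the widest difference of the 5. It stood at 447 CPM in the first numerator group, 94.9 CPM in the second numerator group and 92.2 CPM in the denominator group. The first numerator group thus stood apart, and the other two lay close together. The authors' deposited table lists its log2 fold change as 2.28 (adjusted p = 8.0e-12), a 4.85-fold difference. An approximate standard error of 0.31 follows from the deposited p-value, with a 95% interval of 1.67 to 2.89. Ordered from the highest fold change to the lowest, Cyba ranked 621 among the 12791 genes, and it was the only member that also passed a Bonferroni adjustment.

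Cybb, the catalytic chain, stood at 51.5 CPM in the first numerator group, 25.0 CPM in the second numerator group and 19.6 CPM in the denominator group. The first numerator group was the highest, and the second numerator group lay above the denominator group by more than for any other member. Its log2 fold change in the first comparison of the authors' deposited table was 1.39 (adjusted p = 0.00034), with an implied standard error of 0.34 and an interval of 0.73 to 2.06. The intervals of Cyba and Cybb overlap between 1.67 and 2.06, and whether the fold changes of these partner chains differ was not tested.

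Promoters of Cyba, Cybb and Ncf1 were available from RefSeq (GRCm38.p6), as 250 bases before and 50 after the start of each gene. They are shown because the membrane pair was called and Ncf1 was not. Capitals mark GAGGAA, a core letter string bound by PU.1, the myeloid factor encoded by Spi1, and the CCAAT box, each searched on both strands and without overlap between them. 
Cyba (chr8:122432891-122433190, minus strand): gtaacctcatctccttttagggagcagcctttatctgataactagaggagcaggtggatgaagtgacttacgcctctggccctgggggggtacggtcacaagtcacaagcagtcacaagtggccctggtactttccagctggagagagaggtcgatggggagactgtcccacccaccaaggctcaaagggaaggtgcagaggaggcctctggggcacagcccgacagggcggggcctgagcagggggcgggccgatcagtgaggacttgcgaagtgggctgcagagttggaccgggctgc
Cybb (chrX:9469275-9469574, minus strand): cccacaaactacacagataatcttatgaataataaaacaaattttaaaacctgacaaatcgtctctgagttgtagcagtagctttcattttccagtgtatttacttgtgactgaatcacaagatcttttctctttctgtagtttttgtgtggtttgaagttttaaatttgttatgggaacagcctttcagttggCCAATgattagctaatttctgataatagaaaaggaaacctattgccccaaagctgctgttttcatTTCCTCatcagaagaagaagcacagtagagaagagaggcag
Ncf1 (chr5:134229576-134229875, minus strand): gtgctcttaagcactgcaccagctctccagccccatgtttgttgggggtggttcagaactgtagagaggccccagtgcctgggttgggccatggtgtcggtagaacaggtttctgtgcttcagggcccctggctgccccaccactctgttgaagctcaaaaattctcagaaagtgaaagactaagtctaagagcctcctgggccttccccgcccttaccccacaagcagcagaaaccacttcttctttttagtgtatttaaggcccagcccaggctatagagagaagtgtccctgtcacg
The Cybb window holds 1 GAGGAA, read as TTCCTC on the strand shown and beginning at base 10 after the start, and 1 CCAAT at base -56. Neither string is in the windows of Cyba and Ncf1. GAGGAA occurs in 28.3% and CCAAT in 37.4% of the 32851 promoter windows of that table, so a match is common and is a description of letters only.

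Ncf1, the organiser, lay on the other side of 0. It stood at 52.8 CPM in the first numerator group, 66.4 CPM in the second numerator group and 64.6 CPM in the denominator group. The log2 fold change in the authors' deposited table was -0.29 (adjusted p = 0.615), with an implied standard error of 0.33 and an interval of -0.93 to 0.35, so no difference was detectable on the deposited scale. That interval lies below those of Cyba and Cybb. At equal totals Ncf1 lay at -1.78. Of the members Ncf1 shares the most sequence with a neighbour. In GENCODE M21 11.1% of its exon bases overlap Gtf2ird2 on the opposite strand, which leaves its count uncertain, since the sources used here do not tell whether counting used strand. Of the 36-base strings of Rac2 4.12% recur in transcripts of other genes, against 0 for Cyba, Cybb and Ncf4.

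Ncf4, whose product p40phox binds the phagosome membrane, had like CPM in the 3 groups. It stood at 52.2 CPM in the first numerator group, 53.3 CPM in the second numerator group and 49.9 CPM in the denominator group. For the first comparison the authors' deposited table lists a fold change of 0.06 on the log2 scale (adjusted p = 1), and at equal totals it lay at -1.43. Such a p-value does not show that the groups were equal, and an implied error is unstable at so high a p.

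Rac2, the GTPase, stood at 105.5 CPM in the first numerator group, 59.0 CPM in the second numerator group and 60.6 CPM in the denominator group. In the authors' deposited table its log2 fold change was 0.80 (adjusted p = 0.037), which made it the called member nearest to the threshold. Its implied standard error was 0.30, with an interval of 0.21 to 1.39, and it no longer passed at 0.05 under a Bonferroni adjustment or at an adjusted p of 0.01.

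**Figure D2:**
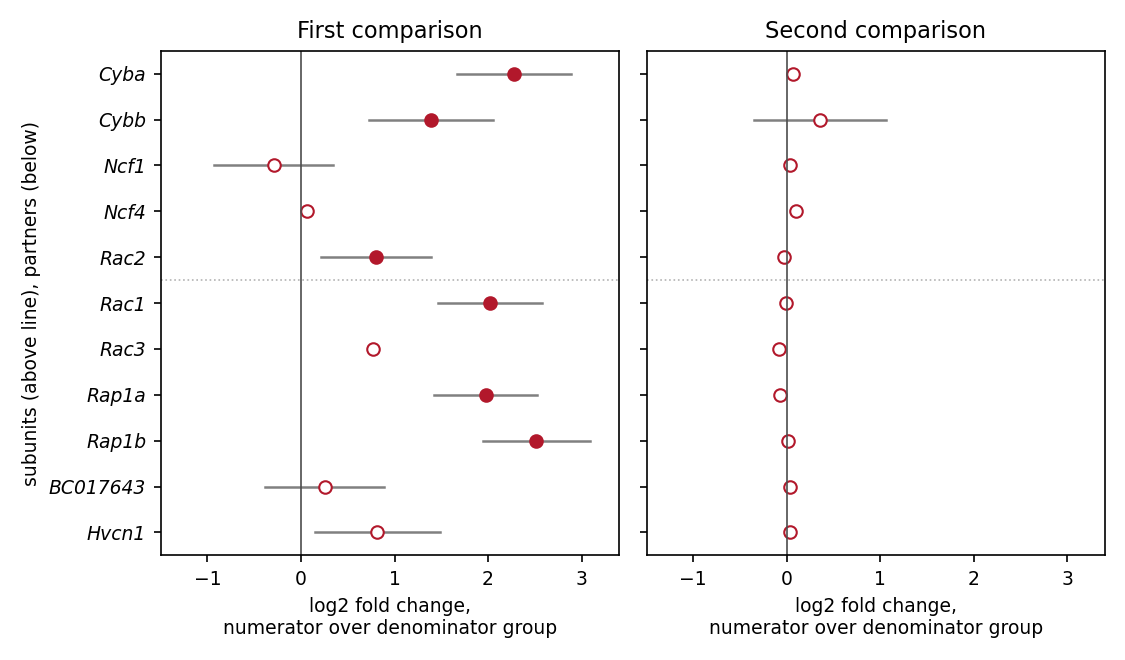
Log2 fold change of numerator over denominator group (horizontal axis) in the first and second comparison for the 5 subunit genes, above the dotted line, and 6 partner genes, below it; filled points have an adjusted p under 0.05 and grey lines are approximate 95% intervals from the deposited p-values, drawn where p was under 0.5. In the first comparison Cyba at 2.28 and Rap1b at 2.52 lie farthest right and Ncf1 at -0.29 lies left of 0; in the second comparison the points lie between -0.09 and 0.35.

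Fold changes of the first comparison rose with gene level, and the members were set against genes of like level for that reason. At 4 to 5 log2 CPM in the denominator group the median log2 fold change was -0.36 over 3110 genes, at 5 to 6 it was 0.11 over 2959 genes, and at 6 to 7 it was 1.01 over 1008 genes. Relative to the median of the 500 genes nearest in level, Cybb stood 1.85 higher, Cyba 1.09 higher and Rac2 0.37 higher. Ncf4 stood at -0.14 and Ncf1 at -0.80 on the same relative scale. In these sets of 500 genes, 18 exceeded the fold change of Cyba, 24 that of Cybb, 126 that of Rac2, 317 that of Ncf4 and 478 that of Ncf1. Cybb thus stands farther than Cyba from the median of its set, while by rank within the sets Cyba comes ahead of Cybb, and the difference between them was not tested. Ncf1 lies near the low end of its set.

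**Figure D3:**
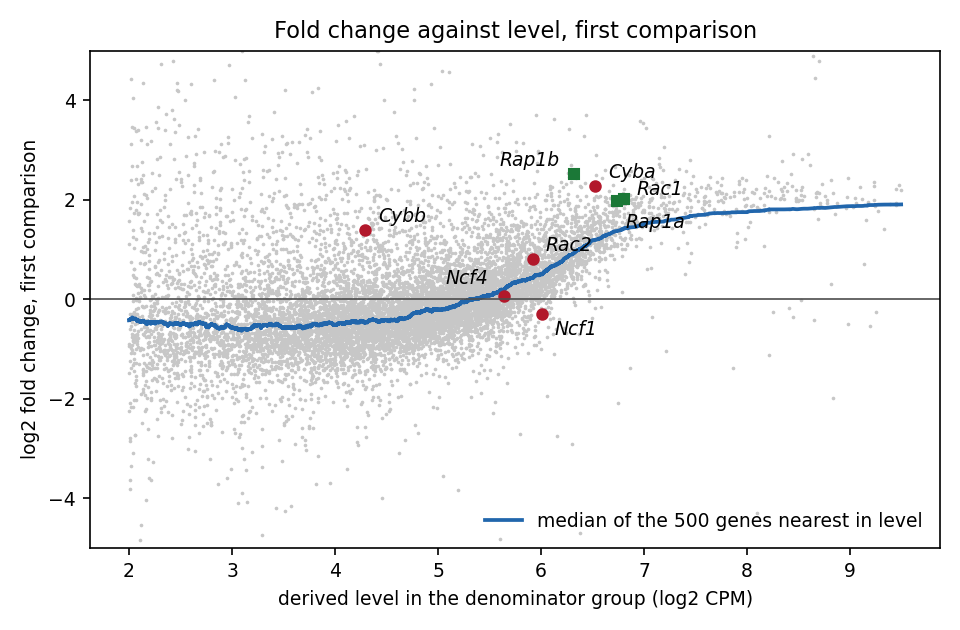
Log2 fold change in the first comparison (vertical axis) against the derived level in the denominator group in log2 CPM (horizontal axis) for all genes from 2 to 9.5 log2 CPM with fold changes within 5 of 0 (grey), with the median of the 500 genes nearest in level (line), the 5 subunits (red circles) and 3 partners, Rac1, Rap1a and Rap1b (green squares). Cybb and Cyba lie above the line by 1.85 and 1.09, and Ncf1 lies below it, at -0.80 from the line.

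Partners of the enzyme were higher for 3 of 6 and lower for none, beside 18.8% of all genes called higher and 3.49% called lower. Their median log2 fold change was 1.40, and relative to genes of like level it was 0.71. The 3 called partners kept their direction at equal totals. Rac1, the widely expressed Rac, had 2.02 (adjusted p = 2.5e-11) in the authors' deposited table, but 51.4% of its exon bases overlap Daglb on the opposite strand, so its count is uncertain.

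Rap1a, a small GTPase that copurifies with the membrane chains, is listed at 1.97 (log2 fold change, adjusted p = 7.0e-11) in the authors' deposited table, and its close relative Rap1b at 2.52 (adjusted p = 5.0e-16). Of the 36-base strings of Rap1a 12.4% recur in other genes (Gm9392 shares the most), so its count is uncertain as well. Hvcn1, the proton channel that balances the charge moved by the oxidase, had 0.82 (adjusted p = 0.068) in the authors' deposited table, with 44.2% of its exon bases overlapping Tctn1 on the opposite strand, and at equal totals it lay at -0.67. BC017643, also named Cybc1, encodes the chaperone that gp91phox needs to reach the membrane, and it had 0.26 (adjusted p = 0.672) in the authors' deposited table, against -1.24 at equal totals. Rac3 was low, with a mean of 1.89 log2 CPM and a fold change of 0.77 (adjusted p = 0.769) in the authors' deposited table, against -0.72 at equal totals. Of 9 genes of the other NADPH oxidases and their helpers, 8 are not listed in the table, and Noxo1, the organiser of Nox1, had -0.41 (adjusted p = 1) in the authors' deposited table.

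Receptors that set off the oxidase were higher for 11 of 19 and lower for 1, against 9 and 3 of the called genes at equal totals. Over all genes 18.8% were called higher and 3.49% lower. The receptors had a median of 1.32, and of 1.29 relative to genes of like level. Formyl peptide receptors sense bacterial peptides, and their genes Fpr1 and Fpr2 are listed at 5.62 (adjusted p = 1.2e-14) and 6.51 (adjusted p = 5.0e-13) on the log2 scale in the authors' deposited table. Fpr2 stood at 35.9 CPM in the first numerator group and 0.394 CPM in the denominator group, so the size of its fold change is uncertain. For Fcer1g, the signalling chain of Fc receptors, the authors' deposited table gives 2.49 (adjusted p = 7.8e-13), and for Fcgr1, a receptor of IgG, 5.42 (adjusted p = 1.0e-11). Fpr1 and Fcgr1 stood at 1.19 and 1.41 CPM in the denominator group, so the sizes of their fold changes are uncertain as well.

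Kinases, exchange factors and other regulators were higher for 7 of 31 and lower for 3, against 3 and 7 at equal totals. Their median was 0.08, and -0.001 relative to genes of like level. Of all genes 18.8% were called higher and 3.49% lower, and none of the lists was tested against these shares. Arhgdia and Arhgdib keep Rac in the cytosol. Their log2 fold changes within the authors' deposited table are 1.82 (adjusted p = 9.3e-09) and 1.53 (adjusted p = 5.5e-07). At equal totals Arhgdia lay at 0.33 and Arhgdib at 0.04. Relative to genes of like level, Arhgdia stood at 1.24 and Arhgdib at only 0.08. Akt1, a kinase that phosphorylates p47phox, had 1.08 and Syk, a kinase downstream of Fc receptors, 1.08, both from the authors' deposited table (adjusted p = 0.0014 and 0.0025), and both lay at -0.41 at equal totals.

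Of 16 transcription factors reported at phagocyte oxidase genes, 2 were higher and 2 lower, against 0 and 4 at equal totals. Over all genes 18.8% were called higher and 3.49% lower, and no such share is given at equal totals. The factors had a median of 0.14, and of -0.11 relative to genes of like level. Spi1, listed as Sfpi1, stood at 154, 84.4 and 82.8 CPM in the first numerator, second numerator and denominator groups. Its fold change was 0.90 (adjusted p = 0.020) in the authors' deposited table, -0.59 at equal totals and -0.11 relative to genes of like level. Cebpb, a factor of myeloid cells, had 0.99 (adjusted p = 0.023) in the authors' deposited table and -0.50 at equal totals. Relative to genes of like level Cebpb lay at 1.41. Satb1, a chromatin organiser, had -2.26 in the authors' deposited table, past the threshold as lower (adjusted p = 0.00088). Gfi1, a repressor needed for neutrophil development, was lower as well by the authors' deposited table (log2 fold change -0.83, adjusted p = 0.042).

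Among 29 genes of superoxide and peroxide handling, 14 passed the threshold as higher and none as lower, against 8 and 6 at equal totals. Over all genes 18.8% were called higher and 3.49% lower. Not all of these genes encode enzymes that remove superoxide or peroxide. Of the 29 genes 24 had fold changes above 0, with a median of 0.73. Relative to genes of like level their median was 0.17. Sod1, which turns superoxide into peroxide, had 2.40 within the authors' deposited table (adjusted p = 2.8e-16). For the glutathione peroxidase gene Gpx4 the authors' deposited table has 2.79 (adjusted p = 3.0e-19), and it has 2.85 (adjusted p = 1.5e-18) for the peroxiredoxin gene Prdx1. Hmox1, the heme-degrading enzyme that also serves as a marker of resident macrophages, had 4.33 (adjusted p = 1.9e-23) in the authors' deposited table. Of 6 peroxidase and nitric oxide synthase genes 3 were listed and 1 was higher. That was Mpo, the myeloperoxidase that turns peroxide into hypochlorous acid, at 2.40 (adjusted p = 1.3e-14) in the authors' deposited table, beside -0.39 for Epx (adjusted p = 0.595) and -1.73 for Lpo (adjusted p = 0.442).

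**Figure D4:**
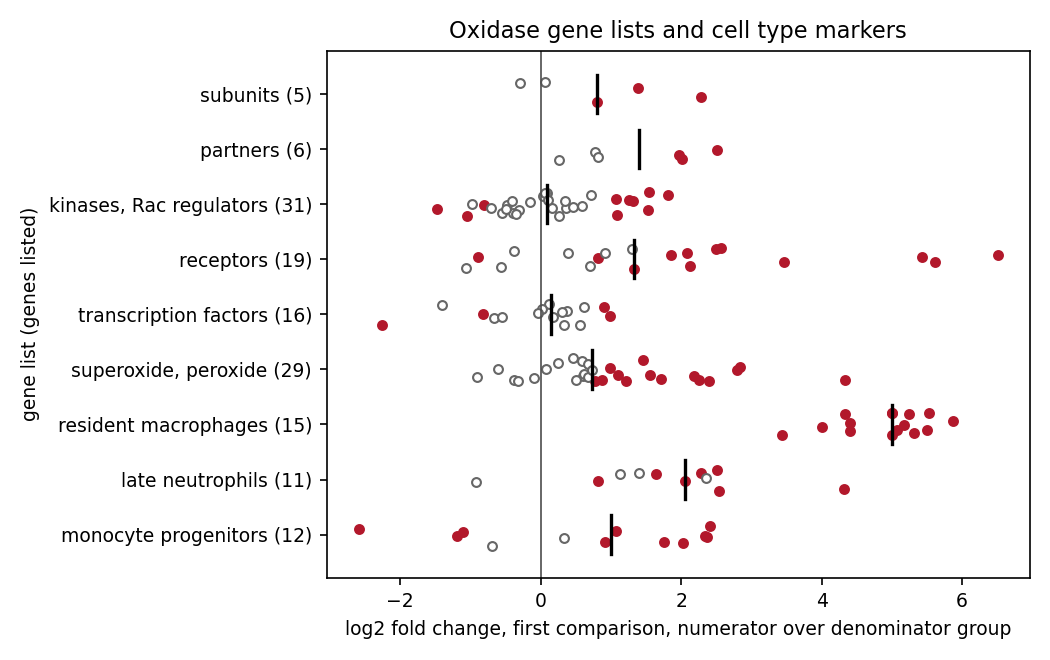
Log2 fold changes of the first comparison (horizontal axis) for the subunits, 5 lists of related genes and 3 lists of cell type markers, 1 point per listed gene, red where the adjusted p is under 0.05, with the median as a black line. The subunits spread from -0.29 to 2.28 around 0.80, and the resident macrophage markers lie from 3.44 to 5.87.

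The second comparison called none of the 5 members and none of the 6 partners, beside 0.109% of all genes called in either direction, 0.0704% called higher, 0.0391% called lower and 0.336% with an unadjusted p under 0.05. None of the members had an unadjusted p under 0.05. Cyba had 0.06, Ncf1 0.04, Ncf4 0.09 and Rac2 -0.03 in the authors' deposited table, each with an adjusted p of 1. Cybb had 0.35 in the authors' deposited table (p = 0.329, adjusted p = 1), with an implied standard error of 0.36 and an interval of -0.35 to 1.06. Among the 500 genes nearest to Cybb in level, 1 had a larger fold change in the second comparison, and the deposited p-value gives no call. Resident macrophage markers were lower in the second numerator group for 1 of 15 genes past the threshold, C1qa, with a median of -1.82. Cybb, which was not called, lay at 25.0 CPM in that group and 19.6 CPM in the denominator group. The part of macrophages in these Cybb levels was not tested. P-values of this comparison lay high, with a median of 0.922 over all genes and 4012 genes at 1, so the members' p-values say little about equality.

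The genes whose pair of fold changes was nearest to each member were found by Euclidean distance over the 2 comparisons, hence over 3 groups, among genes with a mean of at least 4 CPM in both. They were Cox6a1, Snrpf and Akr1c12 for Cyba, and Smek1, Cbx5 and Dph5 for Ncf1. For Ncf4 they were Brix1, Rnf41 and Tsn, and for Rac2 S100a13, Csf3r and 2310009B15Rik. Cybb had the most distant neighbours, Rpl26 at 0.093, Zfp703 at 0.125 and Jun at 0.139 (log2), against at most 0.020 for the named neighbours of the other members. No member was among the named neighbours of another.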

How the data were processed

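Per the labels' protocols, libraries were prepared from total RNA of sorted cells (Illumina TruSeq RNA). Bowtie 0.12.2 and the build mm8 are named, with no role, in the submitters' processing notes, and the sources used here name no counting or testing program. The authors deposited log2 fold changes, mean log2 CPM and p-values with adjusted p-values for 2 comparisons, per the file headers. These were used as they stand, since values per library, which a fit of counts would need, were not in the table. Recomputed Benjamini-Hochberg values equal the deposited ones.

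Group levels were derived as the mean minus log2(w × F + 1 − w), with F the linear fold change and the numerator weight w fitted on genes over 3 log2 CPM by matching the denominators (0.48 and 0.59). Approximate standard errors are the size of the fold change over the normal deviate of its p-value, for p under 0.5. The members and lists were chosen with earlier results of these data known. Named genes are the members, all partners and, in every other list, the 4 of smallest p. Some genes of this pathway are not reported here. List names were matched to the table by symbol or RefSeq synonym (187 of 206). Overlaps and shared 36-base strings come from GENCODE M21. Python 3.11.15, numpy 2.4.6, pandas 2.3.3 and scipy 1.17.1 were used.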

Additional observations from a re-analysis of the deposited data

How the results depend on the processing

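No paired analysis was possible because the table holds no value per library, so no fit with a replicate block could be made, and leaving out replicates, other count scalings and count filters were not run either. With both groups given the same summed CPM, Cybb lay at -0.10 and Rac2 at -0.69 in the first comparison, and 1 called member was higher and 2 lower. That scaling of directions was applied to counts after seeing the data, and it gave 3 higher and 7 lower regulators, 3 lower receptors, 0 higher and 4 lower transcription factors, and 8 higher and 6 lower genes of superoxide and peroxide handling. The larger summed CPM of the first numerator group did not rest on the 10 genes of highest level, without which the log2 ratio was 1.39 rather than 1.49. Bonferroni left 1 member higher. An adjusted p under 0.01 left 1 lower regulator, 0 lower receptors, and 0 higher and 1 lower transcription factor. The cause of these shifts was not tested. Of 175 alternative values 152 stayed within a set limit and 21 shifted by more. That limit was 1.5 times for a count and 1 implied standard error for a fold change or level. For fold changes of both comparisons it was the member's error in the first comparison. Ncf4 and all levels took the median error of the members in the first comparison. The other 2 are the changes of sign of Cybb and Rac2 given above. The tally includes the counts of the second comparison, which were 0 under every setting. A stricter threshold or a change of direction cannot raise such a count, so the tally overstates how stable the results were. Fold changes that were not called changed sign as well, Ncf4 in the first comparison at equal totals (-1.43) and relative to genes of like level (-0.14), and in the second comparison Ncf1 relative to genes of like level (-0.02) and Rac2 at equal totals (0.01). Other group weights shifted no derived level of a member by more than 0.168 log2. Depth per library is unknown, so small differences of Ncf1 and Ncf4 cannot be bounded by counts.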
